A study of Mus musculus with 23 samples.

Results

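Messenger RNA levels of 10 genes of the Notch pathway are described in cells sorted from the mouse lower incisor. The genes are the receptors Notch1, Notch2 and Notch4, the ligands Jag1, Jag2, Dll1 and Dll4, the target genes Hes1 and Hey1, and Lfng, which codes for an enzyme that modifies the receptors. They were chosen by name from a table of estimated counts for 54347 genes, after Ensembl identifiers were matched to symbols without their version, and all 10 were found. Notch3, the fourth receptor, is not among them. The cells came from the labial cervical loop, the part of the incisor's growing end where its epithelial stem cells lie. The mice were 2 days old and all carried green fluorescent protein driven by the endogenous Sox2 promoter. Dissociated cells were sorted by flow cytometry into a Sox2-positive population, named by the labels as dental epithelial stem cells, and a Sox2-negative population, and libraries were made by the Smart-seq2 protocol. Sorting was done on 2 days with different mice, called batch A and batch B. Batch A gave 6 Sox2-negative and 6 Sox2-positive libraries, and batch B gave 4 Sox2-negative and 7 Sox2-positive ones, so that there are 4 groups and 23 libraries. The labels do not say that libraries of 1 batch came from separate mice, so p-values measure the spread between libraries, which may be technical.

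Notch receptors are single-pass membrane proteins that are activated by ligands of the Delta and Jagged families on a neighbouring cell. Ligand binding lets 2 proteases cut the receptor in turn, and the released intracellular part enters the nucleus, binds the DNA-binding protein Rbpj and switches on target genes, among them repressors of the Hes and Hey families. Fringe enzymes such as Lfng add a sugar to the receptor and so alter how it responds to Delta and to Jagged ligands. In the incisor, Notch signalling is known for its part in the epithelium next to the enamel-forming cells, and in vessels Dll4 and Notch4 are known as endothelial genes.

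Total estimated counts ranged from 2305778 to 9541443 per library, with a median of 4831091. A floor of 3 counts stood at 0.355 to 1.29 CPM (the count scaled to a common library total, here after TMM scaling). This floor covers counting error only, since the reads carry no molecular identifiers. Sox2, the gene behind the sort, averaged 0.0434 ± 0.106 CPM in the Sox2-negative and 7.25 ± 4.40 CPM in the Sox2-positive libraries of batch A (SD, n = 6 and 6). In batch B it averaged 0.296 ± 0.592 and 16.3 ± 2.90 CPM (SD, n = 4 and 7). All 6 listed epithelial markers were higher and all 7 mesenchymal markers lower in the Sox2-positive libraries by edgeR over both batches, with Twist1 at 0 in every Sox2-positive library. Several summed marker levels differed between the 2 batches. Summed glial and neural crest markers stood at 960 to 1244 CPM in the batch A and 50.7 to 82.8 CPM in the batch B Sox2-positive libraries. In the same libraries, summed ameloblast markers stood at 288 to 349 CPM in batch A and 6.80 to 10.1 CPM in batch B. Mesenchymal markers there summed to 1344 to 1919 CPM in batch A and 693 to 814 CPM in batch B. Summed erythroid markers stood at 977 to 1161 CPM in the batch A and 53424 to 61778 CPM in the batch B Sox2-negative libraries. The batch B libraries numbered 1 and 2 resembled each other (Spearman 0.952 in the Sox2-negative and 0.980 in the Sox2-positive population) more than the others of their group (0.920 and 0.962), and results that rest on them are also given without them.

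Between the populations, the ligand Jag2 and the glycosyltransferase gene Lfng were higher in Sox2-positive libraries in both batches, while the ligand Dll4 and the target Hey1 were lower in both. Notch1 and Notch2 differed between the batches in their population difference, and Hes1 did not pass the test in either. Of the 10 genes, all passed the filter on low counts in every comparison. Tested by edgeR's quasi-likelihood test with batch as a term, 2 were higher (Jag2 and Lfng), 4 were lower (Jag1, Dll1, Dll4 and Hey1) and 4 did not pass at an adjusted p of 0.05. Over all genes tested, 57.5% were called in that comparison, 24.9% higher and 32.5% lower. The median log2 fold change of the 10 genes was -0.35, against -0.12 for all genes tested. In batch A alone, 2 were higher and 4 lower, where 43.4% of all genes were called (19.3% higher, 24.2% lower). In batch B alone, 4 were higher and 3 lower, where 54.7% of all genes were called (27.1% higher, 27.6% lower). The CPM ranges of the 2 populations did not overlap for 4 of the 10 genes in batch A, where 28.1% of all genes had such ranges (12.5% higher, 15.6% lower). They did not overlap for 6 of the 10 in batch B, where 38.1% of all genes had such ranges (17.5% higher, 20.6% lower). Over both batches, the share called among the 10 genes lay near that of all genes. Here and below, a lower level in sorted cells can mean fewer cells that express the gene or less RNA per cell, and these cannot be told apart.

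**Figure D1:**
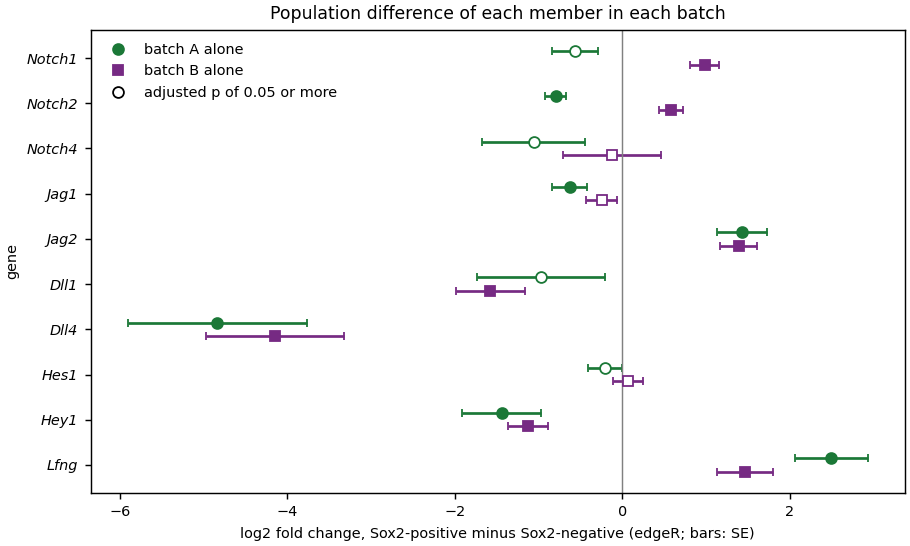
Log2 fold change of each of the 10 genes, Sox2-positive minus Sox2-negative, in batch A alone (circles) and batch B alone (squares), with standard errors from edgeR as bars; open symbols have an adjusted p of 0.05 or more. Jag2 (1.43 and 1.39) and Lfng (2.50 and 1.47) lie to the right in both batches, Dll4 (-4.84 and -4.14) and Hey1 (-1.44 and -1.13) to the left in both, and Notch2 lies at -0.80 in batch A and 0.58 in batch B.

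Promoter sequences are shown for the genes whose populations lay apart in both batches in a shared direction, Jag2 and Lfng on the higher and Dll4 on the lower side. Each is the 250 bases before the RefSeq start on GRCm38.p6, written 5′ to 3′ on the gene's strand. Jag2 is chr12:112929496-112929745 on the minus strand, Dll4 is chr2:119325534-119325783 on the plus strand and Lfng is chr5:140607091-140607340 on the plus strand. Capitals mark matches on either strand to TGGGAA, the core of the Rbpj binding motif, and to the E-box CACGTG, which Hes and Hey proteins can bind.
Jag2: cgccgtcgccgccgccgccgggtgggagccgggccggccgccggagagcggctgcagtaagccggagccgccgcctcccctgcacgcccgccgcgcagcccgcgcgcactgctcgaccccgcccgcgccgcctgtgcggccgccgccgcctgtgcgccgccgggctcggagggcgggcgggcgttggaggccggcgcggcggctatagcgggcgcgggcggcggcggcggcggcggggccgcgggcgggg
Dll4: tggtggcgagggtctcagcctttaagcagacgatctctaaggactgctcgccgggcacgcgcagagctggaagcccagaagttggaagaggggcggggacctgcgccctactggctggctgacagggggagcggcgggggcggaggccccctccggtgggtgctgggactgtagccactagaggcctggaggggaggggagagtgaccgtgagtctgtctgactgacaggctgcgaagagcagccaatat
Lfng: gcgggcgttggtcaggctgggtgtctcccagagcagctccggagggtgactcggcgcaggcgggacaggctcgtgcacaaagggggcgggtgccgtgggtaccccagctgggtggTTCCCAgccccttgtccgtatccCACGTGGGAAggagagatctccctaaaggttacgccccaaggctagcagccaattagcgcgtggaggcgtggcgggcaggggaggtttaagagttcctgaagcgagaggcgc
The Lfng window held TTCCCA, the Rbpj core on the other strand, starting 135 bases before the start. It also held CACGTG at 112 and TGGGAA at 108 bases before the start, and these last 2 share bases. TGGGAA was found in 21.6% of all 32851 promoter windows of this length and CACGTG in 6.02%. The Jag2 window had a GC content of 87.2% and held neither motif, nor did that of Dll4. RefSeq entries were matched for 8 of the 10 genes. The targets Hes1 and Hey1 had none, so their windows were not searched. Among the 8, Lfng alone had a match in this window. By the GENCODE positions given below, the Jag2 and Notch1 windows and the first Dll1 window lie inside the gene. They are therefore not upstream of the GENCODE start. For Jag2 and Notch1, the bases before that start were not searched.

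Notch2 was the most abundant of the 3 receptors in each group, and its level separated all 4 groups. In batch A it ranged from 190.1 to 223 CPM with a median of 199.9 in the Sox2-negative libraries. In the batch A Sox2-positive libraries it ranged from 98.7 to 152 CPM with a median of 112. The Sox2-positive libraries of batch A were all lower than the Sox2-negative ones. In batch B the 4 Sox2-negative libraries held 328, 300, 282 and 329 CPM. The batch B Sox2-positive libraries ranged from 358 to 609 CPM with a median of 415, all above the Sox2-negative ones. The highest 2 of them, at 526 and 609 CPM, are the libraries numbered 1 and 2. By edgeR, Notch2 fell by 0.80 on the log2 scale in batch A (SE 0.12, adjusted p = 6.70e-05) and rose by 0.58 in batch B (SE 0.14, adjusted p = 0.00251). Without the batch B libraries numbered 1 and 2 the batch B difference was 0.39 (adjusted p = 0.0112). The interaction (batch B difference minus batch A difference) was 1.31 (SE 0.18, adjusted p = 2.54e-05), and 1.15 without those libraries (adjusted p = 5.55e-04). An interaction passed for 2 of the 10 genes, Notch1 and Notch2, both higher, and for 7.04% of all genes, 2.82% higher and 4.22% lower. Pooled over both batches, these opposite differences gave -0.22 (SE 0.16, adjusted p = 0.256), which turned to 0.09 with limma-voom and passed the test at -0.41 (adjusted p = 0.0234) without the batch B libraries numbered 1 and 2.

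Notch2 also differed between the batches in each population. It was higher in batch B by 1.92 on the log2 scale among Sox2-positive libraries (SE 0.12, adjusted p = 9.29e-12), a 3.79-fold difference. Among Sox2-negative libraries it was higher in batch B by 0.61 (SE 0.14, adjusted p = 0.00343). Ranges did not overlap in either population. Among Sox2-negative libraries, 1 of the 10 Notch genes was called between the batches, higher in batch B, where 11.2% of all genes were called (5.85% higher, 5.35% lower). Among Sox2-positive libraries 2 were called, both higher in batch B, where 10.4% of all genes were called (4.85% higher, 5.54% lower). Ranges lay apart between the batches for Notch2 and Notch4 among Sox2-negative libraries, where 8.87% of all genes had such ranges (4.57% higher, 4.3% lower). They lay apart for Notch2 alone of the 10 genes among Sox2-positive libraries, where 8.55% of all genes had such ranges (3.9% higher, 4.64% lower). The glial, ameloblast, mesenchymal and erythroid marker sums given above differ between the batches in the populations named there. Their part in the Notch2 difference was not tested. Batch combines the day, the mice and the sort, which cannot be told apart.

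Notch1, a receptor known from T cells and epithelia, changed in batch B but did not pass in batch A. It ranged from 40.4 to 149.6 CPM (median 70.7) in the Sox2-negative and from 33.7 to 68.0 CPM (median 55.3) in the Sox2-positive libraries of batch A, and these ranges overlap. In batch B the Sox2-negative libraries held 45.2, 53.9, 49.6 and 41.8 CPM. The batch B Sox2-positive libraries ranged from 64.4 to 108 CPM (median 90.1), all above them. By edgeR the difference was 0.99 in batch B (SE 0.17, adjusted p = 1.61e-04) and -0.57 in batch A (SE 0.27, adjusted p = 0.107). The batch A difference passed without Sox2-negative replicate 3 (-0.69, adjusted p = 0.0386) and in the model of the 4 group means over all libraries (-0.57, adjusted p = 0.0402). It was -0.28 (adjusted p = 0.354) without Sox2-negative replicate 5, the library at 149.6 CPM. The interaction was 1.49 (SE 0.34, adjusted p = 0.00666), and 1.67 (adjusted p = 0.0370) without the batch B libraries numbered 1 and 2. With the replicate number as a block it was 1.25 and did not pass (adjusted p = 0.164). Over both batches the difference was 0.08 (SE 0.23, adjusted p = 0.775), and -0.04 without the batch B libraries numbered 1 and 2. Among Sox2-positive libraries Notch1 was higher in batch B by 0.76 (SE 0.22, adjusted p = 0.0248), a call that was lost without batch A Sox2-positive replicate 4 (adjusted p = 0.0574) or replicate 5 (adjusted p = 0.0636). Among Sox2-negative libraries the batch difference was -0.73 (SE 0.26, adjusted p = 0.0707). It passed with DESeq2 (-0.77, adjusted p = 0.0269), total-count scaling (-0.88, adjusted p = 0.0273), thinned counts (-0.80, adjusted p = 0.0467) and without batch A Sox2-negative replicate 3 (-0.86, adjusted p = 0.0211).

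Notch4, a receptor known mainly from endothelial cells, was the lowest of the 3 receptors in each group. It ranged from 11.8 to 35.1 CPM (median 22.4) in the batch A Sox2-negative and from 0.537 to 25.0 CPM (median 11.9) in the batch A Sox2-positive libraries. The batch B Sox2-negative libraries held 11.0, 11.2, 10.1 and 2.71 CPM, and the Sox2-positive ones ranged from 1.69 to 22.6 CPM (median 4.65). The populations overlapped in both batches. By edgeR the pooled difference was -0.68 (SE 0.46, adjusted p = 0.213), and it passed with limma-voom (-1.23, adjusted p = 0.0273) and with the replicate block (-1.43, adjusted p = 0.0307). In batch A the difference was -1.06 (adjusted p = 0.182), which passed with limma-voom at -1.75 (adjusted p = 0.0375). Among Sox2-negative libraries it was 1.40 lower in batch B, with an SE of 0.71 and an adjusted p of 0.216, although the batch B values all lay below those of batch A. The 9 listed endothelial markers summed to 895 to 1110.5 CPM in the batch A and 218 to 275 CPM in the batch B Sox2-negative libraries, and 8 of the 9 were called lower in batch B. In the Sox2-positive libraries these markers summed to 1.42 to 11.7 CPM in batch A and 6.58 to 11.9 CPM in batch B. Notch4 averaged 11.1 and 7.83 CPM there, against 23.2 and 8.75 CPM in the Sox2-negative libraries of batches A and B. The part of the endothelial markers in the Notch4 levels was not tested.

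Compared per kilobase of exon length, so that genes of different length can be set side by side, Notch2 made up 69.9% ± 7.69 of the 3 receptors' summed level in the batch A Sox2-negative libraries. It made up 68.4% ± 6.65 in the batch A Sox2-positive libraries (SD, n = 6 each). In batch B it made up 86.6% ± 2.75 and 84.3% ± 5.45 (SD, n = 4 and 7). The Notch1 share averaged 19.6% in the Sox2-negative and 23.5% in the Sox2-positive libraries of batch A, and 10.1% and 13.6% in those of batch B. The Notch4 share averaged 10.5% and 8.05% in batch A, then 3.29% and 2.14% in batch B, Sox2-negative first. The shares of these 3 receptors thus differed more between the batches than between the populations in these means, a description that was not tested. Notch3, left out of the shares, averaged 52.9 and 42.2 CPM in the Sox2-negative libraries of batches A and B. In the Sox2-positive ones it averaged 3.50 and 6.86 CPM.

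Among the ligands, Jag2 rose and Dll4 fell in Sox2-positive libraries in both batches. Jag2, a Jagged ligand known from epithelia and needed for palate and limb formation, ranged from 8.83 to 38.8 CPM (median 26.8) in the batch A Sox2-negative libraries. In the batch A Sox2-positive libraries it ranged from 49.9 to 99.6 CPM (median 70.5). The batch B Sox2-negative libraries held 46.5, 22.1, 37.2 and 21.7 CPM, and the Sox2-positive ones ranged from 63.4 to 100.4 CPM (median 77.6). Every Sox2-positive library was above every Sox2-negative library, across batches as well. The share of all genes separated in this way across batches was not counted. By edgeR the difference was 1.43 in batch A (SE 0.30, adjusted p = 0.00106), 1.39 in batch B (SE 0.22, adjusted p = 6.69e-05) and 1.37 over both (SE 0.19, adjusted p = 8.83e-07), a 2.59-fold difference. The interaction of -0.10 (SE 0.37, adjusted p = 0.932) did not pass. The summed epithelial markers ranged from 137 to 347 CPM over the Sox2-negative and from 2593 to 4419 CPM over the Sox2-positive libraries, and their part in the Jag2 difference was not tested.

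Dll4, a Delta ligand best known from the tips of growing vessels and from arteries, was at or near 0 in Sox2-positive libraries. It ranged from 2.76 to 41.4 CPM (median 21.4) in the batch A Sox2-negative libraries. The batch A Sox2-positive libraries held 0, 0, 2.06, 2.37, 0 and 0 CPM. In batch B the Sox2-negative libraries held 7.22, 4.18, 10.4 and 13.4 CPM. The batch B Sox2-positive libraries were at 0 in 4 of 7 and reached 1.69 CPM at most. The groups did not overlap in either batch, and the highest Sox2-positive values were 11 counts (batch A) and 7 counts (batch B). By edgeR the difference was -4.84 in batch A (SE 1.07, adjusted p = 0.00171), -4.14 in batch B (SE 0.83, adjusted p = 5.08e-04) and -4.57 over both (SE 0.73, adjusted p = 6.32e-06). Because so many libraries were at 0, the size of these fold changes depends on the prior count. The endothelial markers moved the same way: all 9 were called lower in Sox2-positive libraries, where they summed to 1.42 to 11.7 CPM in batch A and 6.58 to 11.9 CPM in batch B. Of the 5 arterial markers, 3 were lower and 1 was higher. Their part in the Dll4 difference was not tested.

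Jag1, the other Jagged ligand, was the most abundant ligand per kilobase in both Sox2-negative groups and was lower in Sox2-positive libraries by a smaller amount. It ranged from 49.8 to 109.7 CPM (median 89.7) in the batch A Sox2-negative and from 47.3 to 69.4 CPM (median 52.3) in the batch A Sox2-positive libraries. The batch B Sox2-negative libraries held 69.8, 70.5, 73.5 and 87.7 CPM, and the Sox2-positive ones ranged from 44.7 to 90.6 CPM (median 56.5). Ranges overlapped in both batches. By edgeR Jag1 fell by 0.49 over both batches (SE 0.14, adjusted p = 0.00454) and by 0.63 in batch A (SE 0.21, adjusted p = 0.0219), and the batch B value was -0.25 (SE 0.18, adjusted p = 0.258). The batch A call was lost without Sox2-negative replicate 3 (adjusted p = 0.0529) or Sox2-positive replicate 1 (adjusted p = 0.0509), and with no filter on low counts (adjusted p = 0.0669). The batch B difference passed without Sox2-positive replicate 2, at -0.40 (adjusted p = 0.0472), and without both libraries numbered 1 and 2, at -0.58 (adjusted p = 0.0202). The interaction of 0.32 (adjusted p = 0.592) did not pass.

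Dll1, a Delta ligand known from somite formation and from cell fate choice in many epithelia, was called lower over both batches, a call that was lost without 1 of the 23 libraries and under 3 other alternatives. It ranged from 0.535 to 54.7 CPM (median 12.0) in the batch A Sox2-negative and from 5.22 to 18.1 CPM (median 7.16) in the batch A Sox2-positive libraries. In batch B the Sox2-negative libraries held 26.4, 24.4, 28.6 and 10.3 CPM. The batch B Sox2-positive libraries ranged from 2.16 to 16.5 CPM (median 5.97), and only the library at 16.5 CPM reached the lowest Sox2-negative one. By edgeR the difference was -1.30 over both batches (SE 0.47, adjusted p = 0.0195), -1.58 in batch B (SE 0.41, adjusted p = 0.00416) and -0.97 in batch A (SE 0.77, adjusted p = 0.327). The pooled difference was -0.95 (adjusted p = 0.0852) without batch A Sox2-negative replicate 1, the library at 54.7 CPM. It was -1.03 (adjusted p = 0.130) without the batch B libraries numbered 1 and 2, -0.94 (adjusted p = 0.123) with limma-voom and -0.999 (adjusted p = 0.225) with the replicate block. The batch B difference without its libraries numbered 1 and 2 was -1.28 (adjusted p = 0.112), and in the model of the 4 group means it was -1.65 (adjusted p = 0.0509). The batch A value was 0.08 with limma-voom.

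By share of the 4 ligands' summed level per kilobase, Jag2 made up 14.1% ± 7.49 in the Sox2-negative and 45.9% ± 8.29 in the Sox2-positive libraries of batch A (SD, n = 6 each). In batch B it made up 17.9% ± 5.46 and 48.7% ± 5.99 (SD, n = 4 and 7). The highest Jag2 share in a Sox2-negative library was 28.7% and the lowest in a Sox2-positive library was 36.5%. Jag1 averaged 53.1% and 42.4% in batch A, then 52.0% and 43.8% in batch B, Sox2-negative first. Dll4 went from 18.4% to 0.858% in batch A and from 9.04% to 0.435% in batch B, and Dll1 from 14.5% to 10.8% and from 21.1% to 7.00%. Sox2-positive libraries held mostly the 2 Jagged ligands.

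**Figure D2:**
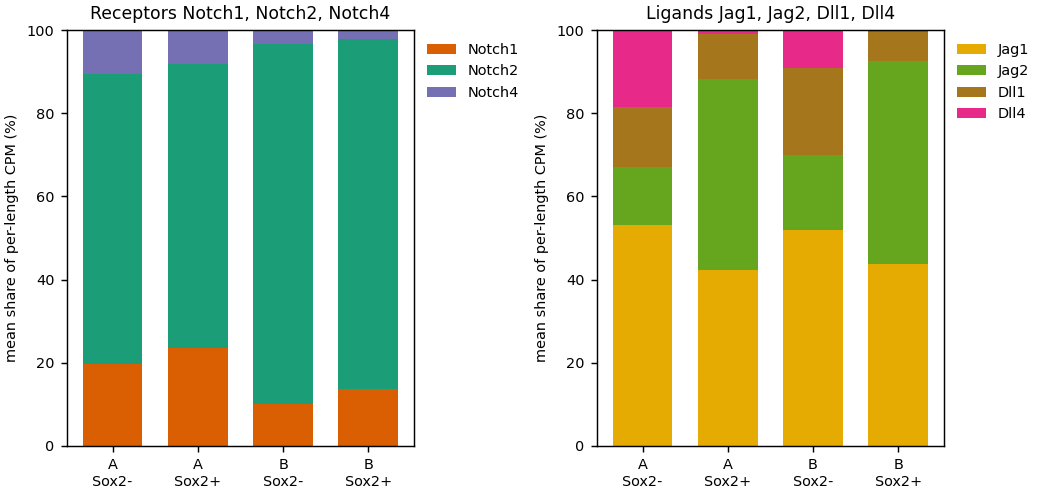
Mean share (%) of each receptor in the summed per-length CPM of Notch1, Notch2 and Notch4 (left) and of each ligand in that of Jag1, Jag2, Dll1 and Dll4 (right), in the 4 groups, where A and B are the batches. Notch2 takes 68.4% to 86.6% of the receptor level in every group, and Jag2 takes 14.1% and 17.9% of the ligand level in the Sox2-negative against 45.9% and 48.7% in the Sox2-positive groups.

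Lfng, the Fringe enzyme gene, rose in Sox2-positive libraries of both batches. It ranged from 1.57 to 9.20 CPM (median 5.44) in the batch A Sox2-negative and from 19.3 to 43.0 CPM (median 29.5) in the batch A Sox2-positive libraries. The batch B Sox2-negative libraries held 4.26, 12.8, 10.1 and 6.94 CPM, and the Sox2-positive ones ranged from 15.1 to 29.7 CPM (median 25.1). Every Sox2-positive library was above every Sox2-negative library, as for Jag2. By edgeR the difference was 2.50 in batch A (SE 0.43, adjusted p = 2.16e-04), 1.47 in batch B (SE 0.34, adjusted p = 0.00166) and 1.97 over both (SE 0.29, adjusted p = 2.46e-06), a 3.91-fold difference. The interaction was -1.09 (SE 0.52, adjusted p = 0.242), so the larger value in batch A was not shown to differ from that in batch B. Lfng is the gene whose promoter window, printed above, held 2 matches to the Rbpj core. At least 1 match was found in 21.6% of all windows, and the share with 2 was not counted. The part of these matches in the Lfng level was not tested.

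The 2 target genes behaved differently. Hey1, a repressor induced by Notch in vessels and many other tissues, ranged from 14.7 to 60.9 CPM (median 27.6) in the batch A Sox2-negative and from 5.30 to 25.1 CPM (median 11.5) in the batch A Sox2-positive libraries. These ranges overlap. The batch B Sox2-negative libraries held 44.4, 35.9, 34.5 and 32.2 CPM, all above the Sox2-positive ones, which ranged from 10.6 to 24.5 CPM (median 14.7). By edgeR Hey1 fell by 1.34 over both batches (SE 0.27, adjusted p = 1.68e-04), by 1.44 in batch A (SE 0.47, adjusted p = 0.0217) and by 1.13 in batch B (SE 0.24, adjusted p = 8.67e-04). The batch A call was lost without Sox2-negative replicate 3 (adjusted p = 0.0590) or replicate 5 (adjusted p = 0.0521). Hey1 fell together with Dll4 and with the endothelial markers, and also with the mesenchymal markers, which summed to 10720 to 13936 CPM in the Sox2-negative and 693 to 1919 CPM in the Sox2-positive libraries. All 6 leukocyte and 5 erythroid markers, and 5 of the 6 mural markers tested, were also called lower in Sox2-positive libraries. So were all 4 odontoblast and all 4 ameloblast markers tested, while all 6 epithelial and all 6 glial markers were higher. Among Sox2-negative libraries the Hey1 difference between the batches was 0.12 by edgeR (adjusted p = 0.898). There, 8 of the 9 endothelial markers were called lower in batch B. The part of these cell types in the Hey1 difference was not tested.

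Hes1, a repressor expressed in many stem and progenitor cells, varied least of the 10 genes over the 23 libraries, with a root mean square deviation of 0.31 on the log2 scale. It ranged from 49.7 to 96.6 CPM (median 75.1) in the batch A Sox2-negative and from 46.0 to 83.5 CPM (median 60.0) in the batch A Sox2-positive libraries. The batch B Sox2-negative libraries held 86.5, 102, 49.6 and 70.5 CPM, and the Sox2-positive ones ranged from 66.7 to 90.6 CPM (median 75.6). All 4 groups overlapped. By edgeR the difference was -0.12 over both batches (SE 0.14, adjusted p = 0.466), -0.21 in batch A (SE 0.21, adjusted p = 0.436) and 0.07 in batch B (SE 0.18, adjusted p = 0.769). With total-count scaling the pooled value was 0.003. Neither batch difference within a population passed (0.10, adjusted p = 0.815, among Sox2-negative and 0.31, adjusted p = 0.343, among Sox2-positive libraries).

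**Figure D3:**
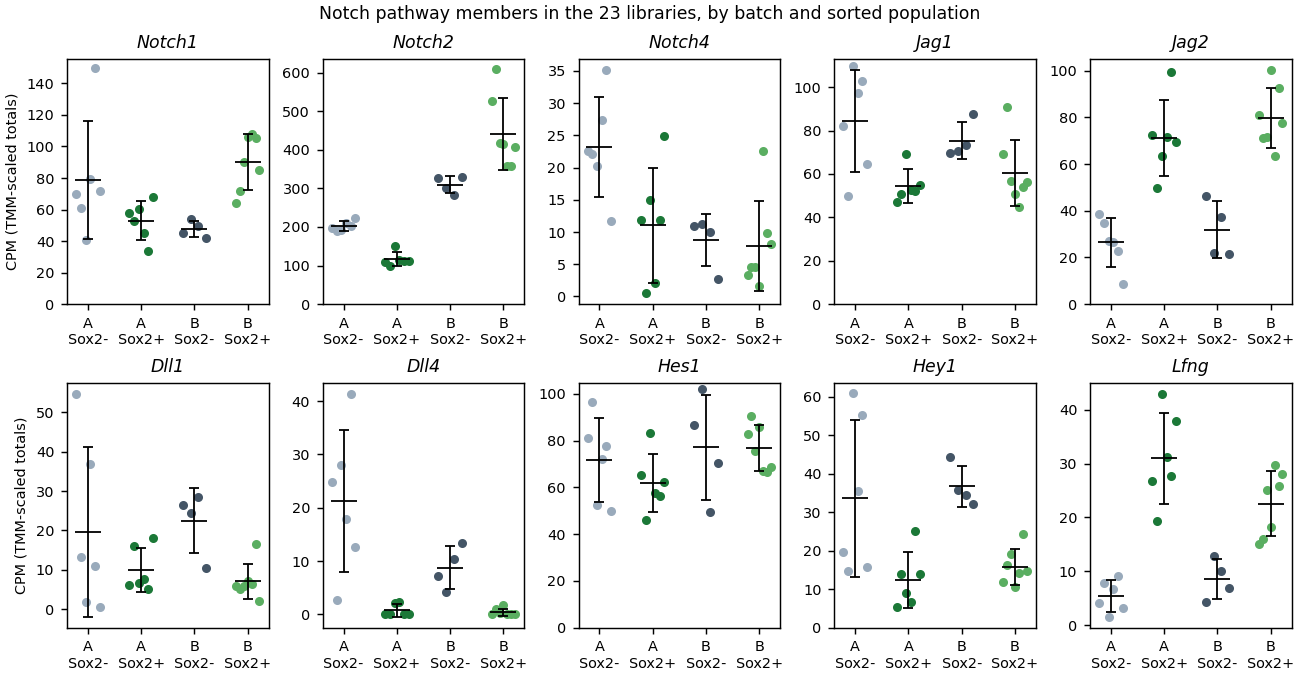
CPM of each of the 10 genes (vertical axes differ) in the 4 groups, where A and B are the batches; each point is a library and the lines give the mean and SD. Jag2 and Lfng show every Sox2-positive library above every Sox2-negative one, Dll4 lies at or below 2.37 CPM in all Sox2-positive libraries, and Notch2 rises from a mean of 116 CPM in batch A to 442 CPM in batch B Sox2-positive libraries.

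On the per-length scale, which allows levels of different genes to be compared, Hes1 was the highest of the 10 genes in 3 groups. It averaged 35.2 CPM per kilobase in the batch A Sox2-negative, 30.4 in the batch A Sox2-positive and 37.9 in the batch B Sox2-negative libraries. In the batch B Sox2-positive libraries Notch2 came first at 41.0 ± 8.62 and Hes1 second at 37.7 ± 4.82 CPM per kilobase (SD, n = 7), which overlap within their spread. Lfng was last in the batch A Sox2-negative libraries at 2.18 CPM per kilobase and second in the batch A Sox2-positive ones at 12.4, where it overlapped with Notch2 (10.8), which overlapped with Jag2 (10.2), and Jag2 with Jag1 (9.35). Dll4 was last in both Sox2-positive groups, at 0.192 and 0.111 CPM per kilobase. In the batch A Sox2-negative libraries each neighbour in the order below Hes1 overlapped with the next. Between the groups, by mean ± SD of CPM, Notch2 was the only one of the 10 genes in which no neighbouring groups overlapped, in the order batch B Sox2-positive, batch B Sox2-negative, batch A Sox2-negative, batch A Sox2-positive. Jag2 and Lfng separated only at the step between the Sox2-positive and Sox2-negative groups, and so did Dll4. For Hes1, Hey1, Jag1, Dll1, Notch1 and Notch4 every neighbouring pair of groups overlapped.

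The rest of the pathway was read from a list of 40 other genes. Of these, 38 passed the filter over both batches, and 10 were higher, 13 lower and 15 not called in Sox2-positive libraries. Over all genes tested, 57.5% were called, 24.9% higher and 32.5% lower, and the counts by role below stand beside these shares. The median log2 fold change of the 38 genes was -0.03. Among 6 other target genes, 3 of the 4 tested were higher by edgeR (Hey2, Nrarp and Hes6), and the fourth, Heyl, stood at 0.02 (adjusted p = 0.962). Hey2, a relative of Hey1, ranged from 0 to 5.65 CPM in the Sox2-negative libraries and from 8.07 to 39.4 CPM in the Sox2-positive libraries of batch A. In batch B it ranged from 0 to 4.71 and from 12.0 to 26.4 CPM. It rose by 2.83 over both batches (SE 0.48, adjusted p = 1.43e-05), by 2.78 in batch A (adjusted p = 0.00323) and by 2.96 in batch B (adjusted p = 4.98e-04). Hey1 and Hey2 thus moved in opposite directions in both batches.

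Nrarp, a small ankyrin-repeat protein that is induced by Notch and dampens it, rose by 2.57 over both batches (SE 0.62, adjusted p = 9.55e-04), but by different amounts in each. In batch A it ranged from 8.57 to 36.5 CPM in the Sox2-negative and from 26.1 to 46.2 CPM in the Sox2-positive libraries, a difference of 1.03 (SE 0.36, adjusted p = 0.0282). In batch B it ranged from 0 to 0.508 CPM in the Sox2-negative and from 13.5 to 25.8 CPM in the Sox2-positive libraries, a difference of 6.42 (SE 0.61, adjusted p = 2.86e-07) whose size depends on the prior count. The interaction was 5.31 (SE 0.71, adjusted p = 1.30e-05). Among Sox2-negative libraries Nrarp was lower in batch B, with a log2 fold change of -6.11 by edgeR (SE 0.63, adjusted p = 1.78e-07). Heyl, a Hey relative known from mural cells, was lower in batch B among Sox2-positive libraries, at 4.71 to 18.1 CPM against 15.7 to 55.4 CPM in batch A (-2.07, SE 0.41, adjusted p = 9.93e-04). The 7 listed mural markers summed to 55.8 to 95.7 CPM in the batch A and 107.8 to 134.5 CPM in the batch B Sox2-positive libraries. By mean CPM, Cspg4 was the largest of the 7 there, at 40.4 (batch A) and 70.9 (batch B). It was not called between the populations by edgeR over both batches (adjusted p = 0.209). Rgs5 stood at means of 0.916 and 1.41 CPM. The glial, ameloblast and mesenchymal sums given above were lower in batch B in these libraries, as Heyl was. The part of any of these markers in the Heyl difference was not tested.

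Among 3 other ligands, Dll3, which lacks the ability to activate receptors on neighbouring cells, was higher and Dlk1 was lower. Dll3 reached 5.56 CPM at most and its difference was 4.14 (SE 0.85, adjusted p = 1.55e-04). Dlk1, an atypical ligand of mesenchymal and endocrine cells, averaged 95.6 CPM in the batch A and 242 CPM in the batch B Sox2-negative libraries, and 6.45 and 9.02 CPM in the Sox2-positive ones. It fell by 4.29 over both batches (SE 0.24, adjusted p = 1.72e-14). Among 4 genes of receptor glycosylation and folding, 1 was higher and 2 were lower. Poglut1, an O-glucosyltransferase, rose by 1.06 (adjusted p = 1.01e-04), and its interaction of -1.25 passed (adjusted p = 0.0178). Pofut1, the O-fucosyltransferase whose sugar Fringe enzymes extend, fell by 1.23 (adjusted p = 2.91e-06). Mfng, another Fringe enzyme gene, fell by 2.83 (SE 0.62, adjusted p = 3.52e-04), opposite to Lfng. In the batch A Sox2-negative libraries it ranged from 12.0 to 36.8 CPM, and in batch A Sox2-positive ones it reached 6.26 CPM at most. In batch B it was low in both populations, at 1.02 to 2.93 CPM in the Sox2-negative and 0 to 1.29 CPM in the Sox2-positive libraries. Within batch B alone Mfng was therefore not tested. The third Fringe gene, Rfng, did not pass (0.42, SE 0.19, adjusted p = 0.0630).

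Of 8 genes for receptor cleavage, 3 were higher, 2 were lower and 3 were not called, where 24.9% of all genes were higher and 32.5% lower. Ncstn, a subunit of gamma-secretase, rose by 1.18 (SE 0.15, adjusted p = 2.58e-07). Psen2, which codes for a catalytic subunit, fell by 1.07 (SE 0.24, adjusted p = 3.95e-04), and the sheddase gene Adam17 fell by 1.22 (SE 0.15, adjusted p = 1.39e-07). Of 4 genes for ligand endocytosis, only Neurl1b was called, and it fell by 1.50 (SE 0.33, adjusted p = 3.52e-04). Of 7 genes of the nuclear complex and its co-repressors, 1 was higher and 3 were lower. Rbpj fell by 0.75 over both batches (SE 0.19, adjusted p = 0.00165). It was also higher in batch B than in batch A in both populations, by 0.95 among Sox2-negative (adjusted p = 0.0348) and 0.96 among Sox2-positive libraries (adjusted p = 0.0166). Maml1, a co-activator, fell by 1.16 (adjusted p = 5.65e-05), the co-repressor Spen fell by 1.06 (adjusted p = 0.00672) and Snw1 rose by 0.38 (adjusted p = 0.0233). Of 8 genes for receptor turnover and inhibition, 1 was higher and 4 were lower. Dtx4, a Deltex ubiquitin ligase gene, fell by 3.35 (SE 0.42, adjusted p = 1.69e-07) and Itch by 0.60 (SE 0.19, adjusted p = 0.00908), while Dtx2 rose by 1.09 (SE 0.25, adjusted p = 6.71e-04).

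**Figure D4:**
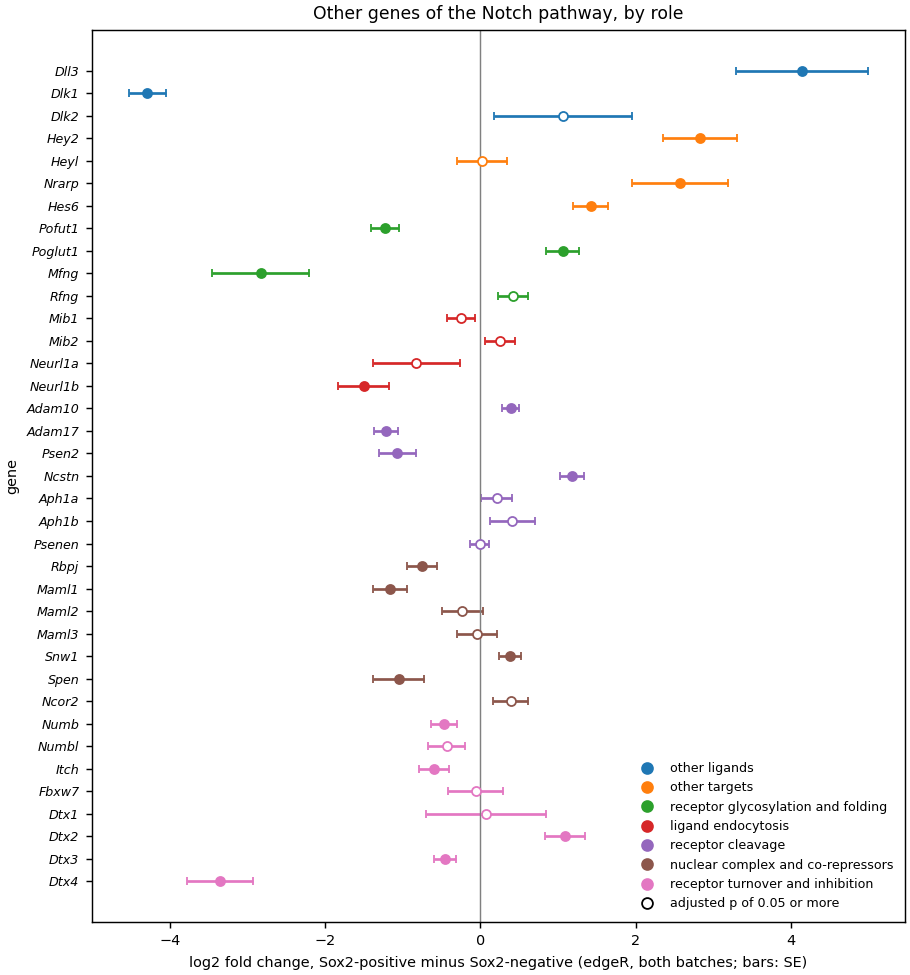
Log2 fold change (Sox2-positive minus Sox2-negative, both batches) of 37 other pathway genes that passed the filter, coloured by role, with standard errors from edgeR as bars; open symbols have an adjusted p of 0.05 or more. Of the 37 genes drawn, 9 are filled on the right and 13 on the left, with Dlk1 at -4.29, Dtx4 at -3.35, Hey2 at 2.83 and Nrarp at 2.57.

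The genes with the profile most like that of each of the 10 were found by the root mean square difference of centred log2 CPM over the 23 libraries, among 11073 genes. For Notch2 these included Maf (0.31) and Rflnb (0.39), where the median over all genes was 1.01. The Jag2 set was Cnot2 (0.30), Dph6 (0.34) and Mlf2 (0.39), with a median of 1.05. The Lfng set was Rab8a (0.45), Btbd19 (0.48) and Fndc4 (0.53), with a median of 1.30. For Dll4 the nearest were Clmp, C1s1 and Pde4d, each at about 1.09, with a median of 2.49. For Hey1 they were Slc23a2 (0.50), Tmem259 (0.50) and Zfp9 (0.53), with a median of 1.12. For Notch1 they were Tlcd2 (0.37), Fundc2 (0.38) and Gpi1 (0.38), with a median of 0.84. For Jag1 they were Hint1 (0.23), Srp19 (0.24) and Arpp19 (0.25), with a median of 0.78. Nearest to Hes1 were Alkbh5 (0.23), Rpl14 (0.23) and Slirp (0.23), with a median of 0.73. Nearest to Notch4 were Apobec3 (0.91), Frmd4a (0.94) and Rexo5 (1.01), with a median of 1.52. Nearest to Dll1 were Trappc10 (0.94), Cep63 (0.94) and Bckdhb (0.95), with a median of 1.50. These are descriptions over shared libraries, with no test.

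By GENCODE release M21 on GRCm38, all 10 genes are protein-coding. Notch1 lies at chr2:26457903-26516663, Notch2 at chr3:98013527-98150361 and Notch4 at chr17:34564268-34588503. Jag1 lies at chr2:137081456-137116644, Jag2 at chr12:112907819-112929776, Dll1 at chr17:15367354-15376872 and Dll4 at chr2:119325784-119335962. Hes1 lies at chr16:30064384-30067796, Hey1 at chr3:8663359-8667256 and Lfng at chr5:140607320-140615545. The sources used here do not state a strand setting, so reads of a gene and of an overlapping gene may have been split between them. Notch1 overlaps Gm13568 and 0610009E02Rik on the other strand. Gm13568 averaged 13.7 CPM in the Sox2-negative and 3.16 CPM in the Sox2-positive libraries of batch A, and 24.0 and 6.07 CPM in batch B, so its difference ran opposite to that of Notch1 in batch B. Notch2 overlaps Gm42819 and Gm42820 on its own strand, which reached 3.86 and 22.04 CPM at most. Dll4 overlaps Gm14207, which averaged 3.36 CPM in the batch A Sox2-negative libraries. Dll1 overlaps A930024N18Rik and Notch4 overlaps Gm20462, both on the other strand. Gm20462 reached 0.514 CPM at most, and no level is given here for A930024N18Rik. Jag2 overlaps Mir6941, which averaged 0 CPM in each group. Jag1, Hes1, Hey1 and Lfng overlap no annotated gene.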

How the data were processed

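Libraries of 4 groups, 23 in all, were compared. The deposited table holds estimated counts per gene (expected counts), not scaled to depth. Per the submitters' processing notes FastQC, Trimmomatic and Salmon were used with the mm10 build, and versions, annotation and strand setting are not given in the sources used here. Of the nonzero values, 0.000436% were whole within 1e-06. Identifiers were matched to GENCODE M21 symbols without version (54094, 99.5%). Unused per-sample columns: 0. Counts were rounded for edgeR 4.0.16 (R 4.3.3): TMM, filterByExpr with a minimum count of 10, quasi-likelihood F test, Benjamini-Hochberg adjustment over all genes tested, called at an adjusted p under 0.05, and SE as the absolute log2 fold change over the square root of F. The pooled comparison had batch as a term. Interactions and batch differences came from a model of the 4 group means. Alternatives were DESeq2 1.42.0, limma-voom 3.58.1, other scalings and filters, thinning to the smallest library, leaving libraries out and the replicate number as a block. CPM per kilobase used union exon lengths. Scripts were tested on simulated data. Every library pair of a group differed beyond sampling noise (the lowest chi-square over its degrees of freedom was 5.46). The labels do not say that replicate numbers pair libraries of the 2 populations, so they were not taken as pairs. Deviations of same-numbered libraries correlated at -0.0212 to 0.0444. The highest values were those of the batch B libraries numbered 1 and 2 (0.0400 and 0.0444).

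The 10 genes, the 40 other pathway genes and the marker lists were chosen with earlier results of these data known. Among the other pathway genes, those named were up to 2 per role and direction with the largest difference among those called with a mean of at least 10 CPM. Dll3, Heyl, Mfng, Rfng and Rbpj were added after their values were seen. For each of the 10 genes the 3 genes of most similar profile (prior count 2, mean of at least 10 CPM) are given. For 2 genes that these rules would name, values are not reported here.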

Additional observations from a re-analysis of the deposited data

Results flagged for a closer look

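In 6 of 40 combinations of gene and group, 1 library lay far from the others of its group, where chance alone would mark about 1 in 20. Notch1 stood at 149.6 CPM in batch A Sox2-negative replicate 5, against 40.4 to 79.7 CPM in the other libraries of that group. Batch A Sox2-positive replicate 3 stood apart for 2 genes, with Notch2 at 152 CPM (others 98.7 to 115 CPM) and Jag1 at 69.4 CPM (others 47.3 to 55.0 CPM). Notch4 was at 2.71 CPM in batch B Sox2-negative replicate 4 (others 10.1 to 11.2 CPM) and at 22.6 CPM in batch B Sox2-positive replicate 5 (others 1.69 to 9.78 CPM). Dll1 was at 16.5 CPM in batch B Sox2-positive replicate 6 (others 2.16 to 7.26 CPM).

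The difference between the populations itself differed between the batches for 2 of the 10 genes by edgeR's interaction test, Notch1 by 1.49 on the log2 scale (adjusted p = 0.00666) and Notch2 by 1.31 (adjusted p = 2.54e-05).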

How the results depend on the processing

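Of the values of the 10 genes under all alternatives, 1618 kept direction and side of the threshold, 34 reversed, 14 lost and 12 gained a call; calls that changed are given beside the results, and the cause was not tested. Genes called between batches among Sox2-negative libraries numbered 1924, against 3113 with limma-voom and 754 without the batch B libraries numbered 1 and 2 (fewer libraries). Without those, 481 interactions passed in place of 1210, and 1159 genes in place of 1785 differed between batches among Sox2-positive libraries. With the replicate block 557 interactions passed, and 1 Notch gene in place of 2, Notch1 being lost; the block also changed Notch4 and Dll1 over both batches and no other call of the 10 genes. No paired analysis was possible for the batch differences because the numbers are nested in a batch. Among Sox2-negative libraries, 2 Notch genes in place of 1 differed between batches with DESeq2, total-count scaling and thinned counts, Notch1 being added. Leaving out 1 library gave 1 to 2 Notch genes for the batch difference in either population.

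None of the reversed values passed the threshold. Over both batches, limma-voom gave 0.093 for Notch2, total-count scaling 0.0032 for Hes1, and leaving out the batch B libraries numbered 1 and 2 gave -0.043 for Notch1. In batch A limma-voom gave 0.078 for Dll1. In batch B, thinning gave 0.071 for Notch4 and -0.073 for Hes1, the 4-group model -0.0092 for Hes1, and leaving out those libraries 0.56 for Notch4. Among Sox2-positive libraries the batch difference was 0.17 for Dll4 with limma-voom and -0.060 for Jag1 without those libraries. Among Sox2-negative libraries it was -0.055 for Hes1 and -0.021 for Hey1 with total-count scaling, and -0.26 and -0.015 without those libraries. The Jag2 interaction was 0.022 without them. With 1 library left out, ranges that crossed 0 were -0.031 to 0.38 (Hey1), -0.055 to 0.80 (Dll1) and -0.046 to 0.28 (Hes1) for batch among Sox2-negative libraries, -1.35 to 0.12 (Dll4) among Sox2-positive libraries, -0.0090 to 0.60 (Hey1), -0.25 to 0.13 (Jag2) and -0.089 to 1.40 (Dll4) for the interaction, and -0.64 to 0.056 (Notch4) and -0.085 to 0.23 (Hes1) in batch B.

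Total-count scaling moved the median of all genes by 0.12 in the pooled comparison and by -0.15 between batches among Sox2-negative libraries, where the higher share of calls went from 52.2% to 32.3%; among Sox2-positive libraries it went from 46.7% to 35.4%. Depth limited Dll4, which did not pass the filter within either batch after thinning.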
